A study of Mus musculus with 4 samples.

Results

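The alarmin receptors and MyD88 adaptors are 10 genes, chosen by name, of the 22554 genes in the table. They code for both chains of the receptors for IL-33 (Il1rl1, Il1rap), IL-18 (Il18r1, Il18rap) and IL-25 (Il17rb, Il17ra), for the specific chain of the TSLP receptor (Crlf2), and for the adaptors and kinase Myd88, Irak4 and Traf6. Their RNA was read in group 2 innate lymphoid cells (ILC2s), sorted from the lungs of wild-type BALB/c mice aged 6 weeks. Both groups of 2 libraries came from cells kept overnight in IL-2, IL-7 and IL-33, with compound 5D, a small molecule that blocks the Orai calcium channels, or with vehicle alone. By the study's methods the sort took lineage-negative CD45+CD127+ST2+ cells, and since ST2 is the product of Il1rl1 and CD127 that of Il7r, both transcripts belong to the gate. Nothing in the labels says whether the libraries of a group came from separate mice or cultures, so the p-values measure only the spread between these libraries.

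Alarmins are cytokines that epithelial and other barrier cells release on damage, and lung ILC2s answer them by making type 2 cytokines such as IL-5 and IL-13. The IL-33 and IL-18 receptors each pair a ligand-binding chain with an accessory chain, and their intracellular TIR domains bind MyD88, which recruits the IRAK kinases and then the ubiquitin ligase TRAF6, leading to NF-kB and MAP kinases. The IL-25 receptor reaches TRAF6 through another adaptor, Act1, and the TSLP receptor pairs CRLF2 with the IL-7 receptor chain and signals through JAK kinases and STAT5.

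The receptor genes Il1rl1, Il18r1 and Il18rap lie side by side in this order on the plus strand of chromosome 1. Annotated Il1rl1 (ENSMUSG00000026069.15, chr1:40429570-40465415 in mm10) ended 136 nt before the start of Il18r1 (ENSMUSG00000026070.15, chr1:40465552-40500854), and Il18rap (ENSMUSG00000026068.11, chr1:40515362-40551705) began 14507 nt further on. To show what lies before the start of the most abundant member, of its neighbour Il18rap and of Traf6, the member with the smallest p-value, the 250 bases before a RefSeq start on GRCm38.p6, the assembly behind mm10, are printed 5′ to 3′ on the plus strand. The windows are chr1:40429320-40429569, chr1:40515112-40515361 and chr2:101678170-101678419, and overlap no annotated exon. Capitals mark GATA, the core bound by GATA factors such as the ILC2 regulator GATA3, and GGAAA, the core bound by the calcium-dependent NFAT factors, each with its reverse complement (TATC and TTTCC); no matches overlapped.
Il1rl1: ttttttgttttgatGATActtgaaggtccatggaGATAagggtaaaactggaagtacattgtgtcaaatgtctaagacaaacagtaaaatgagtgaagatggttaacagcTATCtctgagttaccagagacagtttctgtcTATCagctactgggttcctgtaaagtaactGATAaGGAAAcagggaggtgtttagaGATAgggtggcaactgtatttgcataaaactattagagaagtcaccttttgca
Il18rap: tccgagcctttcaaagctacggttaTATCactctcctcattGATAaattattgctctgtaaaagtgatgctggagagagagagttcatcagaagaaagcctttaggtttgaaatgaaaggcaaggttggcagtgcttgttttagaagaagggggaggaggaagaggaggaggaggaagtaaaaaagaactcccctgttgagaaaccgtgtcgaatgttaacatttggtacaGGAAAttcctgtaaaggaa
Traf6: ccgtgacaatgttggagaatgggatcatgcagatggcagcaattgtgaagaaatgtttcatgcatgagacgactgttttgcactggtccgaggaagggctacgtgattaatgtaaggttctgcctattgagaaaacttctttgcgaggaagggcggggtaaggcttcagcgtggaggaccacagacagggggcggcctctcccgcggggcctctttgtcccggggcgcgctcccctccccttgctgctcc

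The Il1rl1 window printed held 6 GATA matches and 1 GGAAA match, the Il18rap window held 2 and 1, and the Traf6 window held 0 of either. A window at a further Il1rl1 start, chr1:40439379-40439628, overlapped an exon and held 2 GATA matches. Of 32851 windows of the same length in the RefSeq table, 53.6% held a GATA match and 0.338% held at least 6, the most in any window of a member, while 55.6% held a GGAAA match. Of the 10 members, 9 had an entry in that table, with 12 windows, of which 4 overlapped no exon. A match is a run of letters and was not tested as a binding site.

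The libraries held 23239764 and 20096513 counts on genes with vehicle and 26912647 and 28697196 with 5D. All 12 ILC2 markers were tested, and none passed an adjusted p under 0.05 by edgeR's quasi-likelihood test, the test used throughout, adjusted over the 17650 genes tested. At an unadjusted p under 0.05, 1 of the 12 was higher with 5D (Il1rl1) and 3 were lower (Il5, Klrg1 and Thy1), beside 3.5% and 3.84% of all tested genes. Gata3, which codes for the lineage factor, read between 1091 and 1108 normalized CPM, the counts of a library scaled to a common total. Markers of other cells summed to 27.9 to 30.1 CPM for T cells and to at most 0.250 CPM for B cells and 0.431 CPM for NK cells or ILC1s. The table held only 1 of the 3 B cell markers listed and 2 of the 3 for NK cells or ILC1s. It held 0 of the 2 eosinophil markers, so these cells could not be looked for. Most of the T cell sum was Cd3g at 21.6 to 24.6 CPM, Cd3e read 2.76 to 4.13 CPM and Cd4 was at 0 in every library. Foxp3, a marker of regulatory T cells, read 3.96 and 2.30 CPM with vehicle and 1.84 and 1.57 with 5D (unadjusted p = 0.0321, adjusted p = 0.624 by edgeR). It was the only 1 of the 4 tested T cell markers to pass the unadjusted threshold. Foxp3 shares 853 nt of exon with Flicr on the same strand and 590 nt with Ccdc22 on the other, so its counts are uncertain. Mast cell and basophil markers summed to 2.25 to 5.55 CPM with vehicle and 4.79 to 4.97 CPM with 5D, with Ms4a2 at 0 throughout, and myeloid markers to 0.646 to 3.55 CPM and 0.630 to 0.958 CPM. Epithelial markers, nearly all Epcam, summed to 25.5 to 27.8 CPM. Of the 2 endothelial markers listed the table held 1, Pecam1. It read 21.3 and 23.7 CPM with vehicle and 15.7 to 19.9 CPM with 5D (unadjusted p = 0.0392, adjusted p = 0.642 by edgeR). The part of these cells in the values below was not tested.

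The members differed far more from each other than between the groups. Per kb of merged exon length, the scale used to compare genes, Il1rl1 was highest at 98.0 ± 6.27 normalized CPM per kb (mean ± SD over the 4 libraries here and below), above 96.4% of the tested genes. It stood 2.64-fold over Myd88, the second in order, and 97.2-fold over Il1rap, the lowest. The median tested gene read 2.59 normalized CPM per kb. After Myd88 (37.1 ± 0.981) came Il18rap (14.0 ± 0.805), Il17rb (13.9 ± 1.23), Crlf2 (12.7 ± 0.524) and Il17ra (10.7 ± 0.519), all in normalized CPM per kb. Irak4 (6.52 ± 0.227) and Traf6 (6.49 ± 0.871) followed, and Il18r1 (1.16 ± 0.0739) and Il1rap (1.01 ± 0.195) lay below the median tested gene. In this order 4 of the 9 neighbouring pairs had overlapping ranges over the libraries, namely Il18rap with Il17rb, Il17rb with Crlf2, Irak4 with Traf6, and Il18r1 with Il1rap.

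**Figure D1:**
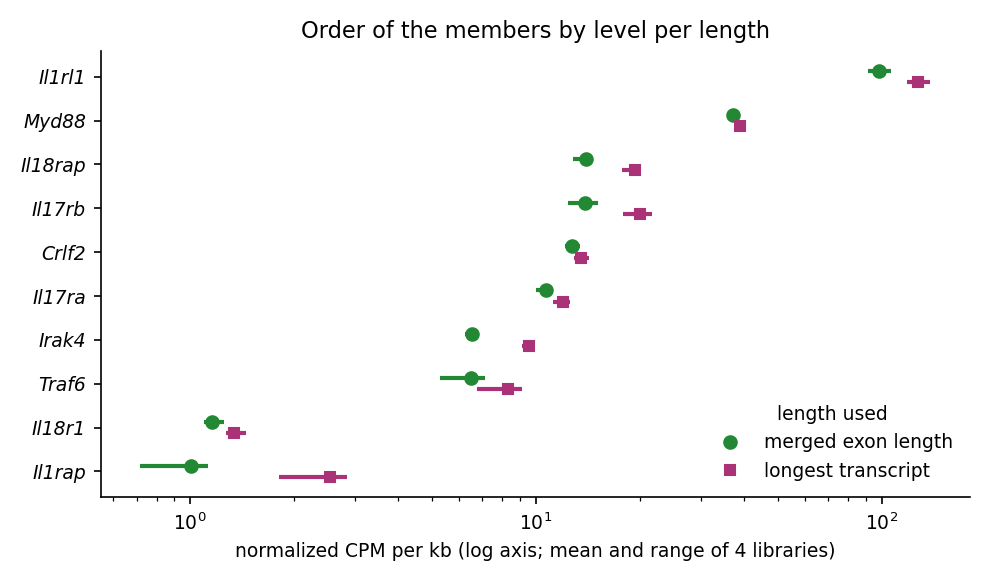
Mean and range over the 4 libraries of normalized CPM per kb, on a log axis, for each member. Circles use the merged exon length, which sets the order, and squares the longest transcript. Il1rl1 stands apart at the top, and Il18r1 and Il1rap share the bottom.

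The genes closest to Il1rl1 in level over the 4 libraries were Nadk, Dnaja2 and Nono, whose log2 levels differed from it by a mean of 0.040, 0.042 and 0.046 (per kb, with 0.01 added before the log). These are widely expressed genes, for an NAD kinase, a co-chaperone and a nuclear RNA-binding protein. The length used matters for Il1rap, whose merged exons cover 11.4 kb against 4.52 kb for its longest transcript. With the longest transcript in place of merged exons, Il1rap read 2.53 normalized CPM per kb, above Il18r1 at 1.34, and Il17rb at 19.99 passed Il18rap at 19.3.

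The RNA levels of the paired chains were unequal within each receptor, and the chains as proteins were not measured in these libraries. Il1rl1 over Il1rap was 85.6 and 127 with vehicle and 90.2 and 96.6 with 5D, as a ratio of levels per kb. For IL-18 the order was turned round, with RNA of the accessory chain above that of the binding chain. Il18rap over Il18r1 was 10.2 and 12.0 with vehicle and 13.4 and 12.99 with 5D. Il17rb over Il17ra was 1.42 and 1.12 with vehicle and 1.20 and 1.47 with 5D. Il7r, the partner of Crlf2, stood over it by 1.86 and 1.81 with vehicle and 1.76 and 1.94 with 5D. The 5D libraries lay above both vehicle libraries in the IL-18 receptor ratio alone, and these ratios were not tested.

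None of the 10 members passed an adjusted p under 0.05 in the comparison of 5D with vehicle, where 0.0963% of all tested genes did (0.0283% higher and 0.068% lower with 5D). At an unadjusted p under 0.05, where 7.34% of tested genes were called (3.5% higher and 3.84% lower), 2 of the 10 passed, Il1rl1 with a higher and Traf6 with a lower value. DESeq2 and limma-voom gave 0 members at the adjusted and 2 at the unadjusted threshold as well, while leaving out vehicle 2 or either 5D library left 1 of the 10 and leaving out vehicle 1 gave 3. DESeq2 gave no adjusted p for Il1rap, Il18r1 and Crlf2. The groups did not overlap for 4 members, 2 higher and 2 lower with 5D, beside 37.6% of all tested genes (18.7% higher and 18.8% lower). The log2 fold change was positive for 4 members and negative for 6, with a median of -0.010 beside -0.0016 over all tested genes. Of the 95% intervals, 8 lay within a fold of 1.5 in either direction. The others were those of Il1rap and Il18r1, the members with the fewest counts. Since these are bulk libraries, fewer cells carrying a transcript and less of it per cell cannot be told apart.

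**Figure D2:**
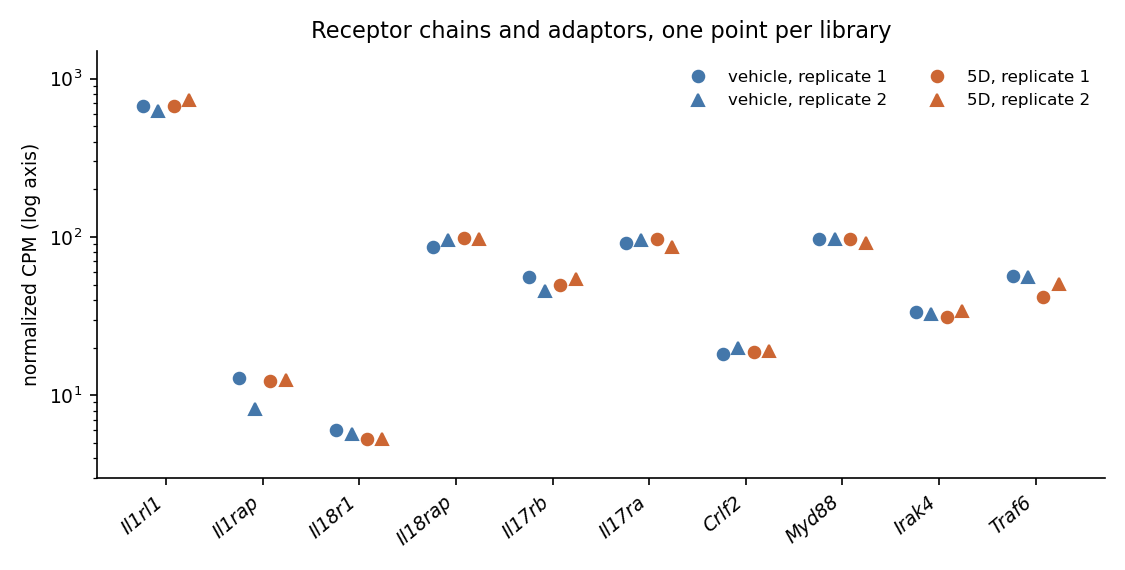
Normalized CPM of each member, on a log axis, with 1 point per library. The 5D libraries lie above both vehicle libraries for Il1rl1 and Il18rap and below them for Il18r1 and Traf6, and the groups overlap for the other members.

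Il1rl1 codes for ST2, the chain that binds IL-33. It read 667 and 627 normalized CPM with vehicle and 676 and 732 with 5D, from 12550 to 20929 counts a library. Both 5D libraries were above both vehicle libraries, the first by a small margin. The log2 fold change was 0.12 ± 0.049 (SE, n = 2 libraries a group), with a 95% interval from 0.014 to 0.23, unadjusted p = 0.0304 and adjusted p = 0.621 by edgeR. Leaving out 1 library at a time moved it between 0.061 and 0.17.

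Il1rap (ENSMUSG00000022514.14, chr16:26581704-26730117, plus strand) codes for the accessory chain that the IL-33 receptor shares with the IL-1 receptors. It read 12.8 and 8.14 normalized CPM with vehicle and 12.3 and 12.5 with 5D, from 163 to 357 counts. Vehicle 2 was low, and vehicle 1 was above both 5D libraries. The log2 fold change was 0.24 ± 0.20 (interval -0.21 to 0.68, adjusted p = 0.870 by edgeR). It was -0.050 without vehicle 2 and 0.60 without vehicle 1.

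Neither chain of the IL-18 receptor passed the test at either threshold. Il18r1, the binding chain, read 6.03 and 5.70 normalized CPM with vehicle and 5.27 and 5.32 with 5D, from 114 to 152 counts. Both 5D libraries were lower, by less than the error of the fit, with a log2 fold change of -0.15 ± 0.21 (interval -0.62 to 0.32, adjusted p = 0.933 by edgeR). Il18rap, the accessory chain, read 86.5 and 95.5 normalized CPM with vehicle and 98.7 and 96.8 with 5D. Its groups were separated by little more than 1 CPM, and the log2 fold change was 0.10 ± 0.072 (interval -0.054 to 0.26, adjusted p = 0.824 by edgeR). It was 0.029 without vehicle 1 and 0.17 without vehicle 2.

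In the IL-25 receptor, Il17rb (ENSMUSG00000015966.17, chr14:29996135-30008896, minus strand), the chain specific to IL-25, read 55.8 and 45.8 normalized CPM with vehicle and 49.8 and 54.5 with 5D. The vehicle libraries lay on either side of the 5D libraries, and the log2 fold change was 0.035 ± 0.11 (interval -0.20 to 0.27, adjusted p = 0.981 by edgeR). Il17ra (ENSMUSG00000002897.5, chr6:120463247-120487559, plus strand), the chain shared by IL-17 family receptors, read 92.1 and 95.4 with vehicle and 97.0 and 86.8 with 5D, again with overlapping groups. Its log2 fold change was -0.029 ± 0.075 (interval -0.19 to 0.13, adjusted p = 0.974 by edgeR).

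Crlf2 (ENSMUSG00000033467.12, chr5:109554709-109558993, minus strand), the TSLP-binding chain, read 18.1 and 19.99 normalized CPM with vehicle and 18.9 and 19.1 with 5D. Both 5D libraries lay between the vehicle libraries, with a log2 fold change of -0.0029 ± 0.13 (interval -0.28 to 0.28, adjusted p = 0.998 by edgeR). Its partner Il7r, which is also the IL-7 receptor and a gate marker, read 105 and 113 with vehicle and 103 and 116 with 5D, and the groups overlapped.

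**Figure D3:**
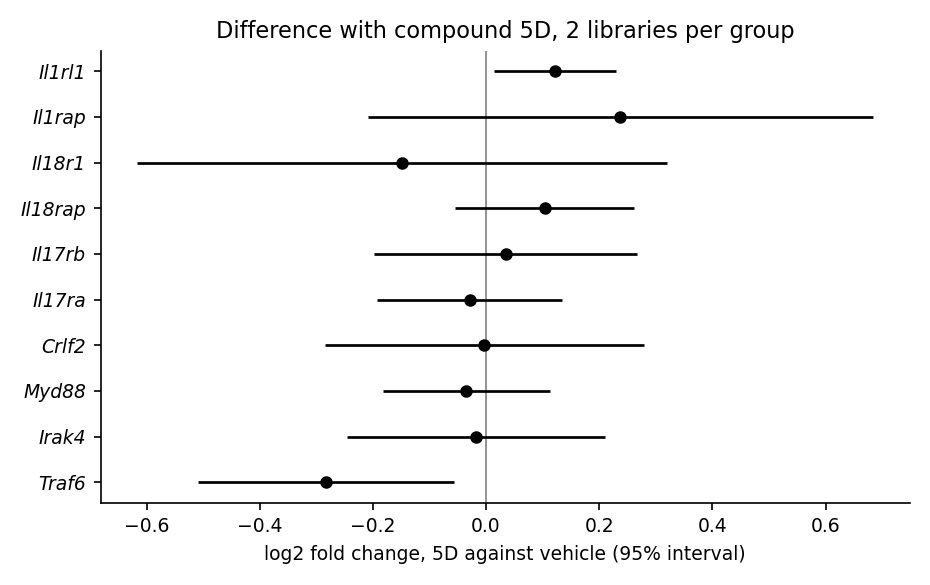
Log2 fold change of 5D against vehicle for each member, with its 95% interval from the edgeR fit. The intervals of Il1rl1 and Traf6 leave out 0 and those of the other 8 members include it, and no member passed an adjusted p under 0.05.

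Downstream of the receptors, Myd88 (ENSMUSG00000032508.8, chr9:119335934-119341411, minus strand) read 97.2 and 96.4 normalized CPM with vehicle and 97.1 and 91.9 with 5D. Its log2 fold change was -0.035 ± 0.067 (interval -0.18 to 0.11, adjusted p = 0.957 by edgeR). Irak4 (ENSMUSG00000059883.16, chr15:94543643-94581815, plus strand), the first kinase that MyD88 recruits, read 33.5 and 32.4 with vehicle and 31.3 and 33.8 with 5D. The groups overlapped for both genes, and the log2 fold change of Irak4 was -0.017 ± 0.10 (interval -0.24 to 0.21, adjusted p = 0.994 by edgeR).

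Traf6 (ENSMUSG00000027164.8, chr2:101678429-101701669, plus strand), the ubiquitin ligase on which the IL-33, IL-18 and IL-25 receptors converge, had the smallest p-value of the 10. It read 56.2 and 56.1 normalized CPM with vehicle and 41.6 and 50.7 with 5D. The vehicle libraries were nearly equal, and the 5D libraries lay below them and further apart from each other. The log2 fold change was -0.28 ± 0.10 (interval -0.51 to -0.056), with unadjusted p = 0.0188 and adjusted p = 0.566 by edgeR. It was between -0.43 and -0.15 when 1 library at a time was left out.

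Some members share sequence with other genes, so their reads could have been split or merged in counting. Myd88 overlaps exons of Acaa1a on the other strand over 290 nt, Il17rb those of Actr8 over 141 nt, Irak4 those of Twf1 over 395 nt and Il1rap those of Gm20319 over 552 nt. Since the cDNA kit used does not mark strand, reads there cannot be told apart by strand. Irak4 also shares a stretch of 152 nt at 98.0% identity with Gm4887.

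Around the chromosome 1 receptor genes lie further members of the IL-1 receptor family. Levels per kb in this stretch changed steeply from gene to gene. Il1r2, which codes for a decoy receptor for IL-1 without a signalling domain, read 75.8 normalized CPM per kb, close to Il1rl1. Between them, Il1r1, the signalling receptor for IL-1, read 0.0346 and Il1rl2, the IL-36 receptor, read 0.377. Il18r1, 136 nt past the end of Il1rl1, read 1.16 against 98.0 for Il1rl1.

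**Figure D4:**
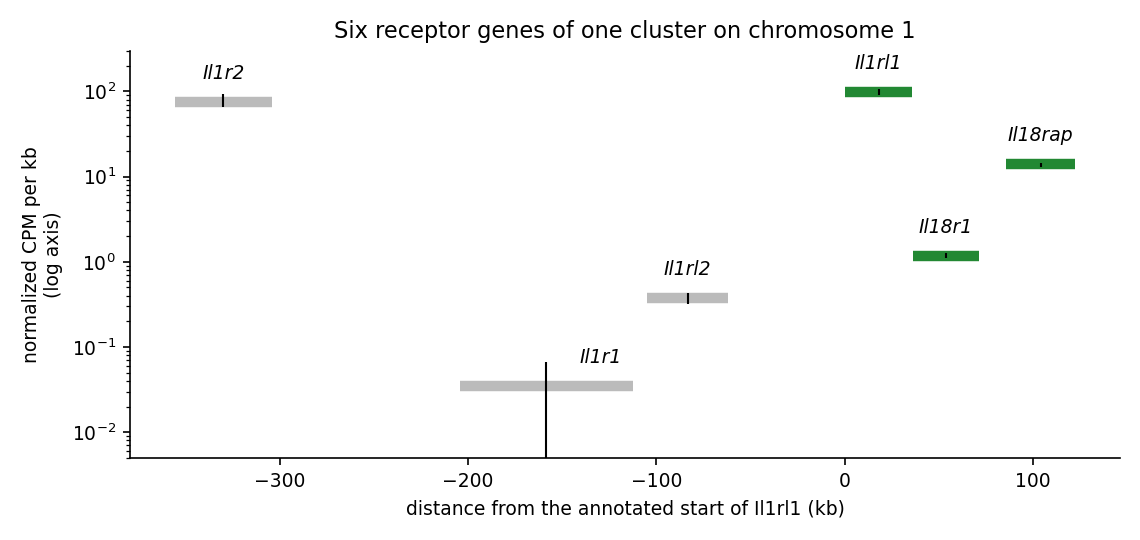
Positions of the IL-1 receptor family genes on chromosome 1, as distance from the start of Il1rl1, and their mean normalized CPM per kb on a log axis, with members in green, other genes in grey and the range of the 4 libraries as a line. Il1r2 and Il1rl1 are high and Il1r1, Il1rl2 and Il18r1 low, and the lowest library of Il1r1 is at 0, so its range is drawn down to the floor of the axis.

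Il1r2 had the smallest p-value among the other pathway genes. It read 151 and 177 normalized CPM with vehicle and 125 in both 5D libraries, with a log2 fold change of -0.39 ± 0.075, unadjusted p = 0.000233 and adjusted p = 0.121 by edgeR. The adjusted p was 0.00044 with DESeq2, 0.0152 with no filter on low counts and 0.0182 with the replicate number as a block. With other filters, normalizations and limma-voom it was between 0.0575 and 0.129. Leaving out 1 library at a time moved it between 2.95e-07, without vehicle 1, and 0.279.

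Of 79 other genes listed for these pathways, 62 were tested, and none passed an adjusted p under 0.05. At an unadjusted p under 0.05, 4 were higher and 4 lower with 5D, which is 12.9% of the 62 beside 7.34% of all tested genes. Their log2 fold changes were positive for 31 and negative for 31, with a median of -0.00012. The groups did not overlap for 10 that were higher and 13 that were lower, beside 18.7% and 18.8% of all tested genes.

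The ligand genes found in the table were low. It held 7 of the 10 ligands and decoys listed, without Il25, Tslp and Il17a, whose levels are therefore unknown here. Of the 7, 4 were tested and none passed at either threshold. The highest per kb were Il18bp, for the protein that captures IL-18, at 0.851 normalized CPM per kb, and Il17f at 0.437. Il33 read 0.17 to 1.20 normalized CPM, Il1b was at 0 in every library and Il18 reached 0.10. Of the other IL-1 and IL-17 receptor chains, 5 were tested. Besides Il1r2, Il17re passed the unadjusted threshold, with 3 and 10 counts with vehicle and 38 and 30 with 5D (log2 fold change 1.98 ± 0.67, adjusted p = 0.552 by edgeR). This was 1.28 without vehicle 1 and 3.20 without vehicle 2. Sigirr, for an inhibitory receptor of the family, read 36.9 normalized CPM per kb and -0.059 in log2 fold change.

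Toll-like receptors use MyD88 as well, and 5 of 12 were tested. Tlr1 was highest, at 9.65 normalized CPM per kb and a log2 fold change of 0.030. Tlr2, its partner in sensing bacterial lipoproteins, read 17.95 and 16.2 normalized CPM with vehicle and 10.5 and 13.4 with 5D, lower by -0.51 ± 0.16 on the log2 scale (unadjusted p = 0.0084, adjusted p = 0.530 by edgeR). Both 5D libraries were below both vehicle libraries for 2 of the 5 tested, Tlr2 and Tlr4, beside 18.8% of all tested genes.

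All 21 other proximal adaptors and kinases were tested, 9 with a positive and 12 with a negative log2 fold change. Tab2, which links TRAF6 to the kinase TAK1, read 57.0 and 50.7 normalized CPM with vehicle and 40.2 and 44.7 with 5D (-0.34 ± 0.099, unadjusted p = 0.00501, adjusted p = 0.487 by edgeR). Peli1, a ubiquitin ligase that acts on IRAK proteins, read 93.2 and 96.8 with vehicle and 82.4 and 80.2 with 5D (-0.22 ± 0.069, unadjusted p = 0.00706, adjusted p = 0.520 by edgeR). The groups did not overlap for Tab2 and Peli1, with 5D lower. Among all 21 they did not overlap for 2 genes higher and 5 lower with 5D, beside 18.7% and 18.8% of all tested genes. Ticam2, an adaptor of TLR4, had 1 and 0 counts with vehicle and 24 and 6 with 5D (unadjusted p = 0.0084, adjusted p = 0.530 by edgeR). The summed counts gave a ratio of 23.3, with an exact counting interval from 3.87 to 950. This interval covers counting error only and not the spread between libraries. Ticam2 shares 838 nt of exon with Tmed7, so its counts are uncertain. Ube2v1 at 81.6 and Ube2n at 59.7 normalized CPM per kb, which together form the enzyme that supplies ubiquitin to TRAF6, were the highest in level, and both have near-identical copies elsewhere.

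**Figure D5:**
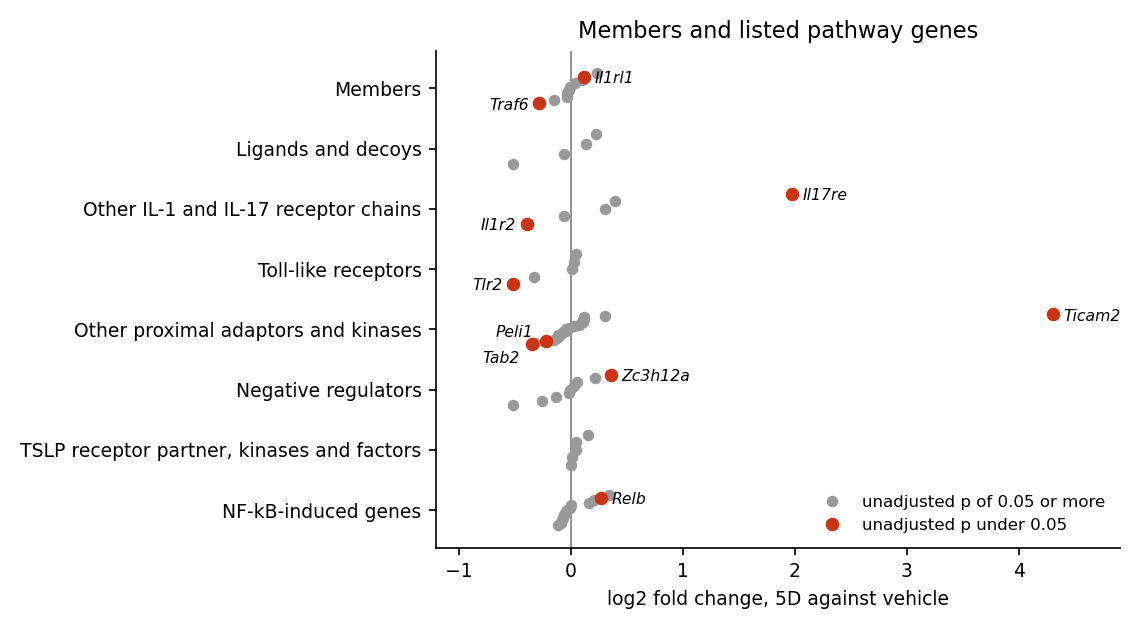
Log2 fold change of 5D against vehicle for the tested genes of each list, with genes of an unadjusted p under 0.05 named. Points lie on both sides of 0 in every list except the TSLP receptor partner, kinases and factors, whose 5 genes are all at positive values.

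Of 9 negative regulators, Zc3h12a, for an RNase that degrades cytokine mRNAs, read 11.8 and 11.5 normalized CPM with vehicle and 14.7 and 15.1 with 5D (0.36 ± 0.15, unadjusted p = 0.0318, adjusted p = 0.624 by edgeR). Tollip and Tnip1, the highest of the list per kb at 18.03 and 14.6, had log2 fold changes of -0.012 and -0.0066. Of 13 NF-kB-induced genes, Relb, for an NF-kB subunit, read 29.9 and 26.2 normalized CPM with vehicle and 33.5 and 34.1 with 5D (0.27 ± 0.11, unadjusted p = 0.0329, adjusted p = 0.629 by edgeR). For Zc3h12a and Relb both 5D libraries were above both vehicle libraries. The groups did not overlap for 2 negative regulators higher and 1 lower with 5D. Among the NF-kB-induced genes they did not overlap for 3 higher and 3 lower, Bcl3 being among the lower. Over all tested genes the shares were 18.7% higher and 18.8% lower. Bcl3 and Nfkbia, targets and regulators of NF-kB at 63.8 and 54.1 normalized CPM per kb, had log2 fold changes of -0.080 and 0.0031. The NF-kB list had 5 positive and 8 negative values and a median of -0.034. Among the TSLP receptor partner, kinases and factors, Jak1 at 75.8 and Jak2 at 24.3 normalized CPM per kb were highest, with log2 fold changes of 0.048 and 0.16, and none of the 5 passed at either threshold.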

How the data were processed

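RNA was measured in 4 libraries, 2 per group as the labels give them. The authors made cDNA with a low-input kit that does not mark strand, sequenced it on a NextSeq system, aligned reads with STAR (2.6.1 in the submitters' processing notes) to mm10 with GENCODE M21 and quantified them in Partek. The deposited values are the authors' estimated counts, not yet normalized, of which 59.3% to 63.0% in a library were whole within 0.01, so they were rounded here although whole counts had been planned for. The labels give 10 ng of input RNA and overnight culture, where the paper's text differs on both.

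Counts were normalized by the upper quartile, genes averaging at least 1 normalized count and summing to at least 10 were kept (17650 of 22554), and 5D was tested against vehicle with edgeR 4.0.16 in R 4.3.3 (quasi-likelihood, two-sided, Benjamini-Hochberg adjustment over all tested genes, threshold 0.05). The authors' Gene Set Analysis was not run. The biological coefficient of variation was 8.51%. SE is the size of the log2 fold change over the root of F. CPM used normalized totals, and exon lengths came from GENCODE M21, where 22079 symbols matched and all 10 members had equal positions. Alternatives used DESeq2 1.42.0, limma 3.58.1 (voom), TMM, DESeq2's size factors, no filter, filterByExpr, the replicate block and leaving out each library. Near-identical stretches (150 nt, 95%) were searched with BLAST 2.17.0, and the code was tested on simulated data. The members and lists were chosen with earlier results of these data known. Named are all members, the genes of each list with an unadjusted p under 0.05 and the 2 highest per kb of each, and the 3 genes nearest to Il1rl1 in level. Marker genes and Il1r1, Il1rl2, Il7r, Il33, Il18 and Il1b were named beside them for context, the last 3 after their values were seen.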

Additional observations from a re-analysis of the deposited data

How the results depend on the processing

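No member passed an adjusted p under 0.05 under any alternative that gave it one. DESeq2 gave none to Il1rap, Il18r1 and Crlf2. At an unadjusted p, 1 to 3 of the 10 passed when 1 library at a time was left out (1 without vehicle 2 or without either 5D library, 3 without vehicle 1). Over all genes the 17 calls became 46 with no filter, 58 with DESeq2, 32 with limma-voom and 15 to 180 with a library left out (180 without vehicle 1, 79 without vehicle 2), and the 1296 unadjusted calls became 778 with DESeq2. The median of the members moved between -0.042 and 0.018 with a library left out, and the other pathway genes at an unadjusted p from 8 to between 5 and 12. Of the other pathway genes 1, Il1r2, passed an adjusted p with no filter, DESeq2, the replicate block and without vehicle 1 (0 to 1 over the libraries left out). These fits on 3 libraries assume that the lone library of a group varies like the others. The cause of these shifts was not tested.

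Nothing in the labels says whether libraries of the same replicate number were paired. The differences between replicates 1 and 2 of the groups correlated at r = 0.027 across 11184 genes. This cannot decide on pairing, since a shared effect could be small beside the other differences. With the replicate block, 41 genes passed an adjusted p.

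Some log2 fold changes changed sign. Crlf2 was 0.0064 with TMM, 0.0024 with limma-voom and -0.078 to 0.067 with a library left out. Leaving out a library gave -0.050 to 0.60 for Il1rap, -0.10 to 0.18 for Il17rb, -0.11 to 0.047 for Il17ra, -0.079 to 0.0028 for Myd88 and -0.077 to 0.034 for Irak4. It gave -0.61 to 1.88 for Il17f, -0.064 to 0.13 for Tlr1, -0.051 to 0.021 for Tollip and -0.014 to 0.11 for Jak1. Tnip1 was 0.0024 with TMM and -0.068 to 0.053 with a library left out, and Nfkbia -0.00013 with limma-voom and -0.075 to 0.072 with a library left out. The signs of Il1rl1, Il18rap and Traf6 held in all alternatives run, and that of Il18r1 in all but DESeq2, for which its value was not tabulated.

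With the longest transcript in place of merged exons, the levels in normalized CPM per kb were 127 for Il1rl1, 38.9 for Myd88, 19.99 for Il17rb, 19.3 for Il18rap, 13.5 for Crlf2, 12.0 for Il17ra, 9.53 for Irak4, 8.29 for Traf6, 2.53 for Il1rap and 1.34 for Il18r1. The mean ratios became 51.6 for Il1rl1 over Il1rap, 14.5 for Il18rap over Il18r1, 1.68 for Il17rb over Il17ra and 2.28 for Il7r over Crlf2. Among the 10 members, Il18r1 and Il1rap had the fewest counts, at 114 to 357 a library, and Ticam2, Il17re and Il17f had fewer still.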
